A study of Homo sapiens with 9 samples.

Results

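The integrin and laminin genes are 38 of the 64253 gene identifiers counted in IMR90 cells, which are fibroblasts of human fetal lung with a limited lifespan in culture. They were set by a rule on the gene symbol, with no measured value, and comprise 18 integrin alpha subunits, 8 integrin beta subunits (ITGB1 to ITGB8) and 12 laminin chains. ITGB3 was listed under a second identifier that had 0 counts and was not kept. RNA was sequenced from 3 groups of 3 libraries, called a, b and c in each group. All cells were kept at 2% oxygen, used at population doubling 30, given 2 lentiviral infections 24 hours apart and selected in 3 ug/mL puromycin for 7 days. Control cells carried the pLKO.1 vector without a hairpin, which the sample labels call empty and the treatment protocol calls GFP. The shRRM2 cells carried a short hairpin against RRM2, which encodes the small subunit of ribonucleotide reductase, and the design text describes them as senescent through depletion of dNTPs. The shRRM2/shp16 cells carried this hairpin and one against p16, a product of CDKN2A, and are described as having bypassed that senescence. The p16 hairpin was not measured without the RRM2 hairpin. The labels give 1 hairpin name per target and do not say whether the letters mark separate infections, so the p-values below cover the spread between these libraries, which may be technical.

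Integrins are heterodimers of an alpha and a beta subunit that hold cells to the extracellular matrix and connect it, through talin and kindlin, to the actin cytoskeleton. The alpha subunit largely sets the ligand: some bind collagens, some bind laminins, some bind the RGD motif of fibronectin and vitronectin, and a further set belongs mainly to leukocytes. Laminins are trimers of an alpha, a beta and a gamma chain and form the adhesive network of basement membranes, the thin matrix sheets on which epithelium, endothelium and muscle rest.

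The libraries held 15770895 to 24873291 gene-assigned counts. Reads in no counted feature were 17.6% to 18.9% of unique reads in control, 27.7% to 28.8% in shRRM2 and 23.5% to 24.4% in shRRM2/shp16. The tally does not say whether such reads lay in introns or outside genes. Its part in the results below was not tested. RRM2 stood at 481 to 491 CPM (the count divided by the scaled size of its library) in control, 60.0 to 63.2 in shRRM2 and 175 to 181 in shRRM2/shp16. CDKN2A stood at 5.95 to 6.15, 5.97 to 6.79 and 3.93 to 4.57 CPM, on the whole gene, which does not single out the p16 transcript. All 11 fibroblast markers examined were tested, and they summed to 26580 to 28030 CPM in the control and shRRM2 libraries and to 22910 to 23500 CPM in shRRM2/shp16. Of 12 leukocyte markers 3 were tested, with sums of 4.999 to 7.88 CPM over the 9 libraries, and CD3E and FCGR3A were among those at 0 in all of them. The 12 epithelial markers, 6 of them tested, summed to 170 to 173 CPM in control, 191 to 195 in shRRM2 and 65.7 to 68.8 in shRRM2/shp16, mostly KRT18, with KRT5 and SFTPC at 0 throughout. The 8 smooth muscle markers, 7 of them tested, summed to 2948 to 3092 CPM, 2360 to 2459 and 935 to 972 in the same order, led by TAGLN. The 10 endothelial markers summed to 67.0 to 74.2 CPM in control and shRRM2 and to 117 to 125 in shRRM2/shp16, of which TEK made up 65.2, 67.4 and 115 CPM. The part of these marker genes in the integrin and laminin results was not tested, and in these bulk samples fewer cells of a type and less RNA per cell cannot be told apart.

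Of the 38 genes, 32 passed the filter on low counts. The other 6 were ITGAD (at most 3 counts in any library), ITGAL (9), ITGAM (2), ITGB2 (5), ITGB7 (10) and LAMC3 (5), of which the first 5 encode leukocyte integrin subunits and LAMC3 a gamma chain. Levels of different genes were compared as RPKM, which is the CPM per kilobase of gene length. ITGB1, the beta subunit shared by most integrins, had the highest RPKM in each group, with 493 in control, 468 in shRRM2 and 387 in shRRM2/shp16. Next by the mean over all libraries came the fibronectin receptor subunit ITGA5 (130 RPKM), the laminin gamma chain LAMC1 (112), the collagen receptor subunit ITGA2 (87.6) and the laminin beta chain LAMB1 (71.0). The order of these changed with the group, since ITGA5 stood at 171 RPKM in shRRM2 and at 77.9 in shRRM2/shp16, below ITGA2 at 101 there. At the other end, ITGA9 and LAMB4 averaged 0.0685 RPKM each, on 4 to 17 counts a library.

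**Figure D1:**
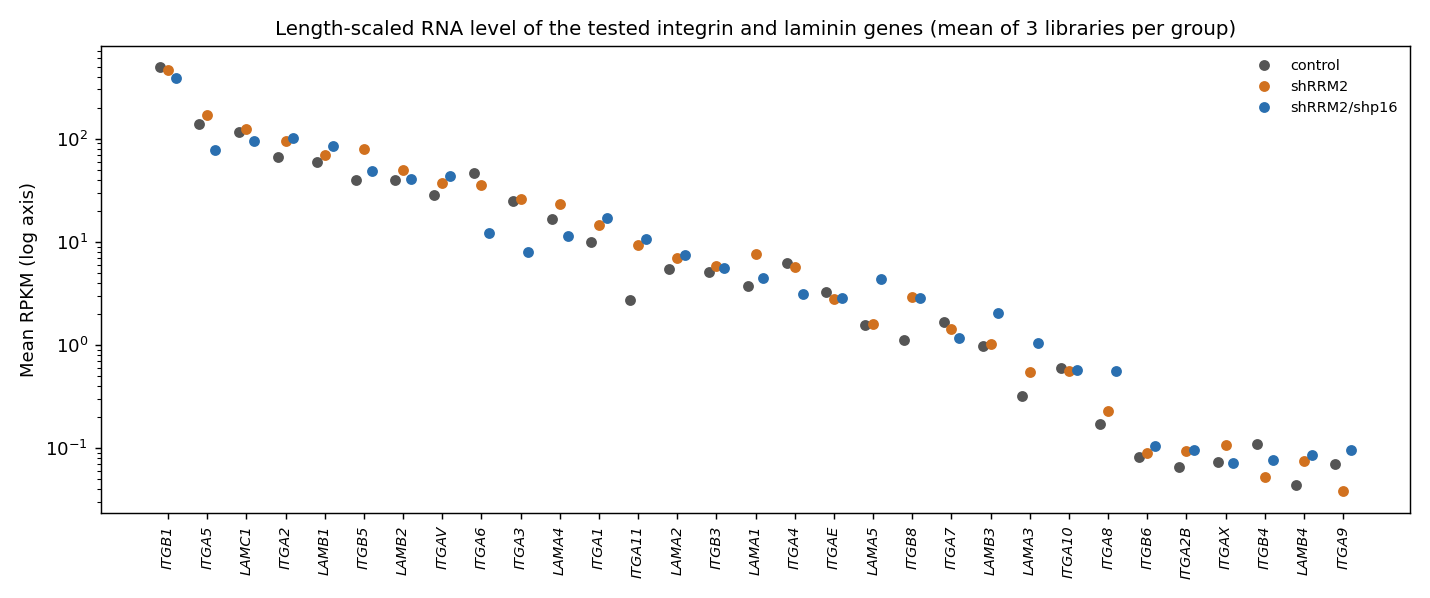
Mean RPKM of 31 tested integrin and laminin genes in each group (3 libraries a group; log axis), ordered by the mean over all libraries. ITGB1 is highest in each group, and ITGA6, ITGA3, ITGA11 and LAMA5 show the groups well apart.

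In shRRM2 against control, the contrast of the RRM2 hairpin alone, the collagen receptor subunit ITGA11, the TGF-beta activating subunit ITGB8 and the laminin chain LAMA1 rose at least 2-fold. ITGB5 rose 1.97-fold, and the laminin receptor subunit ITGA6 fell 1.29-fold. Of the 32 tested genes 15 rose, 7 fell and 10 were not called at an edgeR adjusted p under 0.05, or 68.8% called, beside 60.9% of all 16561 tested genes, 29% of them higher and 31.8% lower. Beside those 3, ITGB4 was at least 2-fold lower on few reads, a call lost without control a (adjusted p 0.483); over all genes 10.1% were changed so far, 6.81% higher and 3.26% lower. The groups did not overlap for 23 of the 32 genes, beside 63.6% of all genes. The median log2 fold change of the 32 was 0.26, beside 0.0023 over all genes. Integrin beta genes were called in 5 of 6 cases (3 higher, 2 lower), laminins in 8 of 11 (7 higher, 1 lower) and integrin alpha genes in 9 of 15 (5 higher, 4 lower).

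The contrast between the hairpin groups, shRRM2/shp16 against shRRM2, adds the p16 hairpin, but RRM2 itself was also higher in shRRM2/shp16 (log2 fold change 1.51, edgeR adjusted p 7.92e-34), and CDKN2A was lower (-0.60, adjusted p 7.01e-05). The parts of these differences in the results cannot be told apart. The laminin receptor subunits ITGA3 and ITGA6, the fibronectin receptor subunit ITGA5 and the laminin chain LAMA4 fell at least 2-fold. LAMA5, ITGA8 and ITGA9 rose at least 2-fold, ITGA9 on only 4 to 17 counts a library. DESeq2 did not call ITGA9 (adjusted p 0.0529). In all, 11 genes rose, 12 fell and 9 were not called, or 71.9% called, beside 61.1% of all genes, 31.9% higher and 29.1% lower. Beside the 4 and 3 genes named, over all genes 11.8% were changed so far, 6.58% lower and 5.19% higher. The groups did not overlap for 23 genes, beside 64.7% of all genes, and the median log2 fold change was 0.05, beside 0.011 over all genes. Of 11 laminins 5 rose and 5 fell, of 15 integrin alpha genes 6 rose and 5 fell, and of 6 integrin beta genes 2 fell and none rose.

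Against control, shRRM2/shp16 had 15 genes higher, 10 lower and 7 not called, or 78.1% called, beside 62.4% of all genes, 30% higher and 32.4% lower. Genes at least 2-fold higher were ITGA11, ITGA8, ITGB8, LAMA3, LAMA5 and LAMB3, and those at least 2-fold lower were ITGA6 and ITGA3; over all genes 12.6% were changed so far, 6.59% higher and 6% lower. The groups did not overlap for 24 genes, beside 66.2% of all genes, and the median log2 fold change was 0.28, beside 0.015. Each group enters a pair of the comparisons, so these are not independent of one another.

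**Figure D2:**
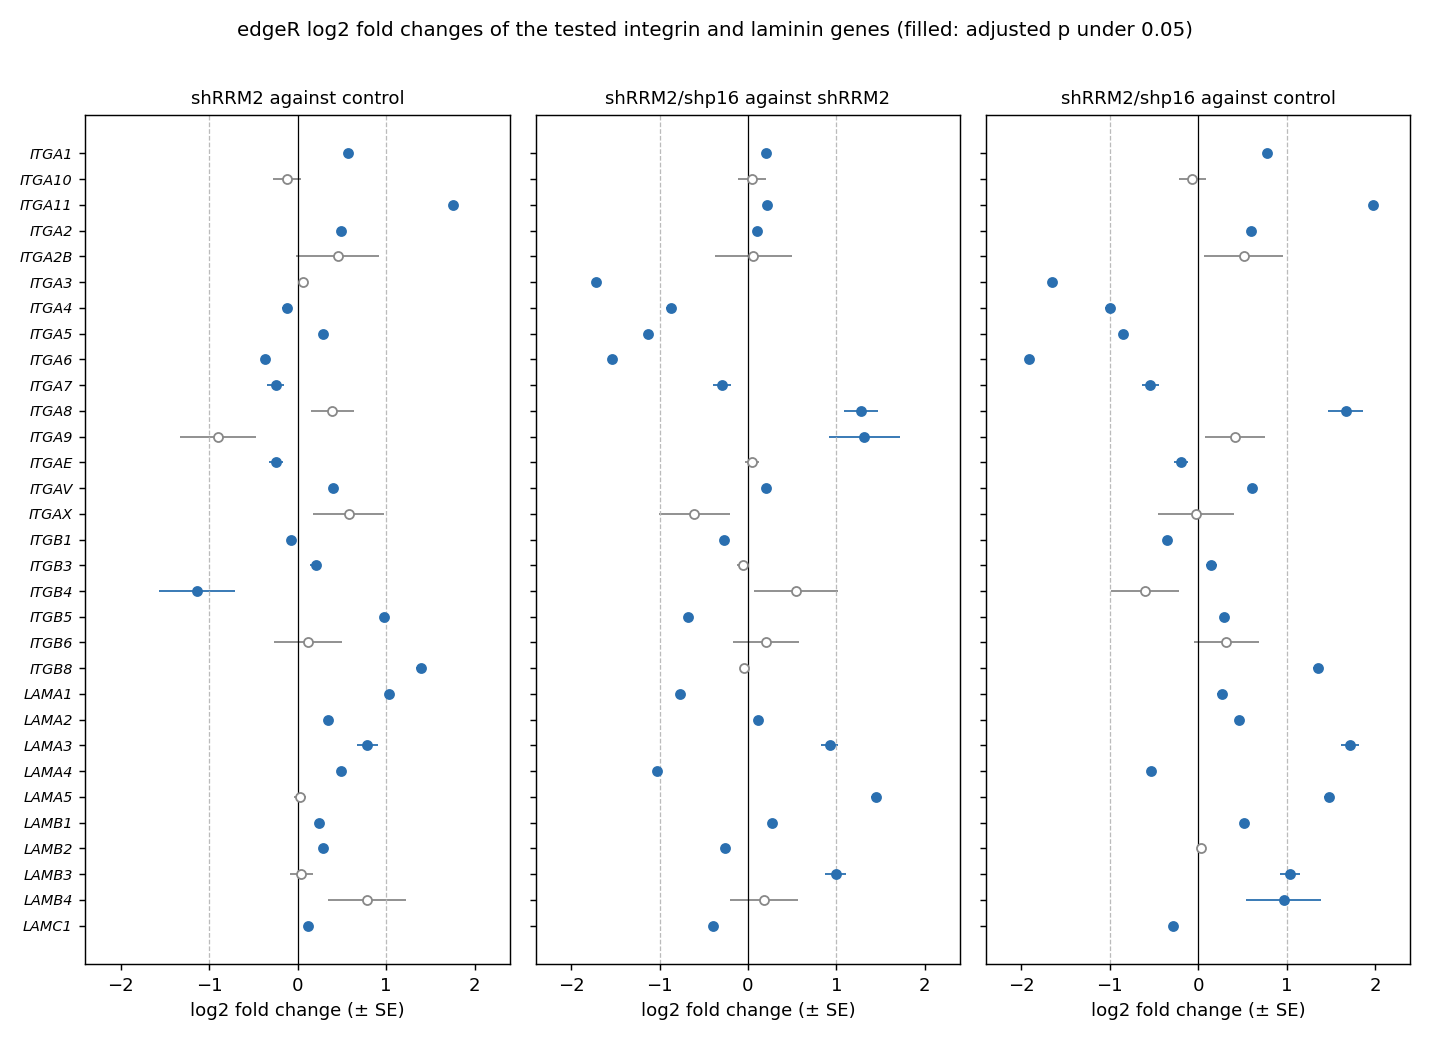
Log2 fold changes (± SE) of 31 tested genes in the 3 comparisons, with filled points where the edgeR adjusted p was under 0.05 and dashed lines at 2-fold. ITGA3 and ITGA6 lie below the lower line in the middle and right panels, and ITGA11 and ITGB8 lie above the upper line in the left and right panels.

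The collagen-binding alpha subunits, ITGA1, ITGA2, ITGA10 and ITGA11, all pair with ITGB1. In each comparison 3 of the 4 rose and ITGA10 was not called, with median log2 fold changes of 0.53 for shRRM2 against control, 0.15 between the hairpin groups and 0.69 for shRRM2/shp16 against control. Of all tested genes 29%, 31.9% and 30% rose in the same order. ITGA11 (ENSG00000137809, chr15:68296533-68432162, minus strand), a receptor for fibrillar collagen typical of fibroblasts, had 28.4, 30.1 and 30.7 CPM in control a, b and c. It had 101, 101 and 99.6 CPM in shRRM2 and 120, 117 and 114 CPM in shRRM2/shp16. The 3 groups did not overlap, with control far below the other two. ITGA11 was 3.39-fold higher in shRRM2 than in control (log2 fold change 1.76 ± 0.045 SE, edgeR adjusted p 5.34e-32), the largest rise among the 32 genes in that comparison. It was 1.16-fold higher in shRRM2/shp16 than in shRRM2 (0.22 ± 0.038, adjusted p 3.49e-06).

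Of the genes that changed at least 2-fold, ITGA11, ITGA6 and LAMA5 had a RefSeq promoter window free of annotated exon bases, and these 3 windows are shown with the gene. The 250 bases before the ITGA11 start are those of the gene that rose most of the set in shRRM2 (RefSeq, GRCh38.p14, chr15:68432164-68432413, minus strand, 5′ to 3′). Capitals mark the letters GGGNNTTCC, an NF-kappaB type motif, searched on both strands; 5.78% of 35116 RefSeq promoter windows of this length hold it.

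ITGA11: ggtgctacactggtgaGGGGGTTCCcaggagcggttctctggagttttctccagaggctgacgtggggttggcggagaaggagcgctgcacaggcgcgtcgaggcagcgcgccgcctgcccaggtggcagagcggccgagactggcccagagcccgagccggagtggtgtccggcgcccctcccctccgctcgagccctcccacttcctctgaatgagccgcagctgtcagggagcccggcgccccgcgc

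This window was 71.2% G or C and held 1 such match, with no match to TGANTCA (AP-1), GGGCGG (GC box) or GGAATG (TEAD). A match is a description of the letters and does not show binding.

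ITGA2 (ENSG00000164171, chr5:52989326-53094779, plus strand), the alpha subunit of a receptor for fibrillar collagen, was the most abundant of this class by RPKM. It had 509, 550 and 530 CPM in control, 743, 736 and 760 in shRRM2 and 789, 810 and 808 in shRRM2/shp16. The 3 groups did not overlap. ITGA2 was 1.41-fold higher in shRRM2 than in control (adjusted p 7.20e-20) and 1.07-fold higher in shRRM2/shp16 than in shRRM2 (adjusted p 9.29e-04). ITGA1, which lies beside ITGA2 on chromosome 5 and favours basement membrane collagen, had 180 to 185 CPM, 267 to 276 and 306 to 318 in the same order, again without overlap. Its log2 fold changes were 0.57 ± 0.030 for shRRM2 against control (adjusted p 1.30e-20) and 0.20 ± 0.029 between the hairpin groups (adjusted p 6.28e-08). ITGA10, known from cartilage, was counted at 2.94 to 4.07 CPM over all libraries, and its groups overlapped.

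The laminin-binding alpha subunits are ITGA3, ITGA6 and ITGA7. In shRRM2/shp16 all 3 were lower than in shRRM2 (median log2 fold change -1.54) and lower than in control (median -1.66). In shRRM2 against control ITGA6 and ITGA7 fell and ITGA3 was not called. Among all tested genes 29.1% fell between the hairpin groups, 32.4% in shRRM2/shp16 against control and 31.8% in shRRM2 against control. ITGA3 (ENSG00000005884, chr17:50055968-50090481, plus strand), whose product with ITGB1 is a main receptor for laminin-332 and laminin-511, had 250, 242 and 239 CPM in control and 253, 266 and 247 in shRRM2. It had 76.6, 79.5 and 76.1 CPM in shRRM2/shp16. The control and shRRM2 values overlapped, and the shRRM2/shp16 values lay far below both. ITGA3 was 3.30-fold lower in shRRM2/shp16 than in shRRM2 (log2 fold change -1.72 ± 0.035, adjusted p 4.65e-36) and 3.15-fold lower than in control (-1.66 ± 0.035, adjusted p 1.57e-35). The small difference between shRRM2 and control (0.06 ± 0.031, adjusted p 0.0721) passed the threshold under 3 other settings and with control a or shRRM2 c left out, with log2 fold changes of 0.08 to 0.10.

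ITGA6 (ENSG00000091409, chr2:172427354-172506282, plus strand) encodes an alpha subunit that binds a wide range of laminins with ITGB1 or ITGB4. It had 293, 308 and 305 CPM in control, 236, 224 and 240 in shRRM2 and 77.7, 81.8 and 81.5 in shRRM2/shp16. The 3 groups did not overlap and ran downward in that order. ITGA6 was 1.29-fold lower in shRRM2 than in control (-0.37 ± 0.031, adjusted p 9.40e-14) and 2.91-fold lower in shRRM2/shp16 than in shRRM2 (-1.54 ± 0.035, adjusted p 4.31e-34). Against control it stood at 26.6% in shRRM2/shp16 (-1.91 ± 0.035, adjusted p 5.17e-38), the largest fall among the 32 genes. ITGA7, known from muscle, had 10.2 to 11.3 CPM in control, 8.38 to 9.46 in shRRM2 and 6.82 to 7.74 in shRRM2/shp16, without overlap. Its log2 fold changes were -0.25 ± 0.097 in shRRM2 against control (adjusted p 0.0265), -0.29 ± 0.10 between the hairpin groups (adjusted p 0.0139) and -0.54 ± 0.098 in shRRM2/shp16 against control (adjusted p 6.59e-06). The first of these was lost without control a (adjusted p 0.134) or shRRM2 c (0.141), and the second without shRRM2 b (0.0575) or shRRM2/shp16 b (0.092). DESeq2 called neither (adjusted p 0.122 and 0.0933), and the first was also lost with at least 10 counts in every library (0.0535).

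The 250 bases before the upstream start of ITGA6 are those of the gene that fell most in shRRM2/shp16 against control (RefSeq, GRCh38.p14, chr2:172427086-172427335, plus strand, 5′ to 3′), with the same motifs searched.

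ITGA6: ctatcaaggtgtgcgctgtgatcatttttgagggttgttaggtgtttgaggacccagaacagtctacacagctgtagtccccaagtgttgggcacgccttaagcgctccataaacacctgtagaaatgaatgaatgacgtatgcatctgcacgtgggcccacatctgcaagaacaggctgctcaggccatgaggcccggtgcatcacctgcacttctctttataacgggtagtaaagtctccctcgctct

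This window was 50.8% G or C and held none of the 4 motifs, so it has no capitals. A second RefSeq start of ITGA6, whose window runs into annotated exons and is not printed, had 3 GC boxes.

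The RGD-binding alpha subunits are ITGA5, ITGA8, ITGAV and ITGA2B. The first 3 were called in at least 1 comparison, and ITGA2B, the platelet subunit, was not called at 1 to 12 counts a library. Of the 4 genes 50% were called in shRRM2 against control, beside 60.9% of all genes. Between the hairpin groups and in shRRM2/shp16 against control 75% were called, beside 61.1% and 62.4% of all genes. ITGA5 (ENSG00000161638, chr12:54395261-54419460, minus strand), which pairs with ITGB1 as the classical fibronectin receptor, had 1084, 1049 and 1054 CPM in control and 1254, 1306 and 1322 in shRRM2. In shRRM2/shp16 it had 606, 590 and 575 CPM. No overlap was seen between groups, with shRRM2 highest and shRRM2/shp16 lowest. ITGA5 was 1.22-fold higher in shRRM2 than in control (0.28 ± 0.026, adjusted p 6.97e-13), 2.19-fold lower in shRRM2/shp16 than in shRRM2 (-1.13 ± 0.026, adjusted p 7.41e-34) and 1.80-fold lower than in control (-0.85 ± 0.026, adjusted p 2.70e-29). ITGAV, the alpha subunit shared by the vitronectin receptors and the activators of latent TGF-beta, moved otherwise, with 226 to 242 CPM in control, 300.3 to 311 in shRRM2 and 345 to 361 in shRRM2/shp16. Its log2 fold changes were 0.40 ± 0.030 in shRRM2 (adjusted p 3.66e-15) and 0.21 ± 0.030 in shRRM2/shp16 against shRRM2 (adjusted p 6.07e-08), without overlap.

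ITGA8 (ENSG00000077943, chr10:15513949-15720125, minus strand), a nephronectin receptor subunit known from kidney development, was counted low, with 14 to 93 reads a library. It had 1.59, 1.45 and 0.834 CPM in control, 1.84, 1.61 and 1.78 in shRRM2 and 3.70, 4.63 and 4.35 in shRRM2/shp16. The shRRM2/shp16 values stood above the rest, and the control and shRRM2 values lay close to each other without overlap. ITGA8 was 2.42-fold higher in shRRM2/shp16 than in shRRM2 (1.28 ± 0.19, adjusted p 2.25e-07) and 3.18-fold higher than in control (1.67 ± 0.20, adjusted p 6.81e-10), while shRRM2 against control was not called (0.39 ± 0.24, adjusted p 0.159).

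ITGA4 and ITGA9 are related subunits that bind VCAM1 and forms of fibronectin or osteopontin. ITGA4, best known from leukocytes, had 48.6 to 49.3 CPM in control, 44.4 to 45.7 in shRRM2 and 22.8 to 25.6 in shRRM2/shp16, without overlap. Its fall from shRRM2 to shRRM2/shp16 was 1.83-fold (-0.87 ± 0.055, adjusted p 5.63e-18) and that from control 1.996-fold (-0.997 ± 0.054, adjusted p 1.32e-20), just short of 2-fold. The small difference between shRRM2 and control (-0.13 ± 0.050, adjusted p 0.0273) was lost with DESeq2 (adjusted p 0.0755), with the 6 libraries compared (0.0502) or at least 10 counts in every library (0.0921), and without control a or b or shRRM2 b or c (0.0552 to 0.0885). ITGA9 (ENSG00000144668, chr3:37452115-37823514, plus strand) was near the filter, with 4 to 17 counts a library. It had 0.671, 0.671 and 0.417 CPM in control, 0.317, 0.231 and 0.402 in shRRM2 and 0.687, 0.797 and 0.914 in shRRM2/shp16. The shRRM2/shp16 values were above and the shRRM2 values below those of control, with narrow gaps between the groups. ITGA9 was 2.49-fold higher in shRRM2/shp16 than in shRRM2 (1.32 ± 0.40, adjusted p 4.53e-03), and DESeq2 did not call it (adjusted p 0.0529). Its difference between shRRM2 and control (-0.90 ± 0.43, adjusted p 0.0656) was called only without control c (-1.07, adjusted p 0.0432). It shares 6.46% of its exon bases with the antisense gene ITGA9-AS1, and without a stated strand setting reads there cannot be told apart.

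Of the leukocyte alpha subunits ITGAE and ITGAX were tested. ITGAE, whose product with ITGB7 binds E-cadherin, had 19.8 to 24.5 CPM in control, 16.4 to 20.3 in shRRM2 and 17.9 to 19.99 in shRRM2/shp16. The 3 groups overlapped. ITGAE was called lower in shRRM2 (-0.24 ± 0.080, adjusted p 8.71e-03) and in shRRM2/shp16 (-0.20 ± 0.077, adjusted p 0.0263) than in control, and without control b both calls were lost (adjusted p 0.111 and 0.27). Without shRRM2 b the first (0.123), and without shRRM2/shp16 a or b the second (0.147 and 0.0585), were lost as well, and DESeq2 did not call the second (0.082). Its partner ITGB7 had at most 10 counts in any library. ITGAE shares 6.41% of its exon bases with HASPIN on the other strand, which had 2310 counts over all libraries. Without a stated strand setting, reads there cannot be told apart. ITGAX was not called in any comparison at 5 to 17 counts a library, though without shRRM2 a it was called both against control and between the hairpin groups (log2 fold changes 0.93 and -0.95, adjusted p 0.0453 and 0.0413).

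**Figure D3:**
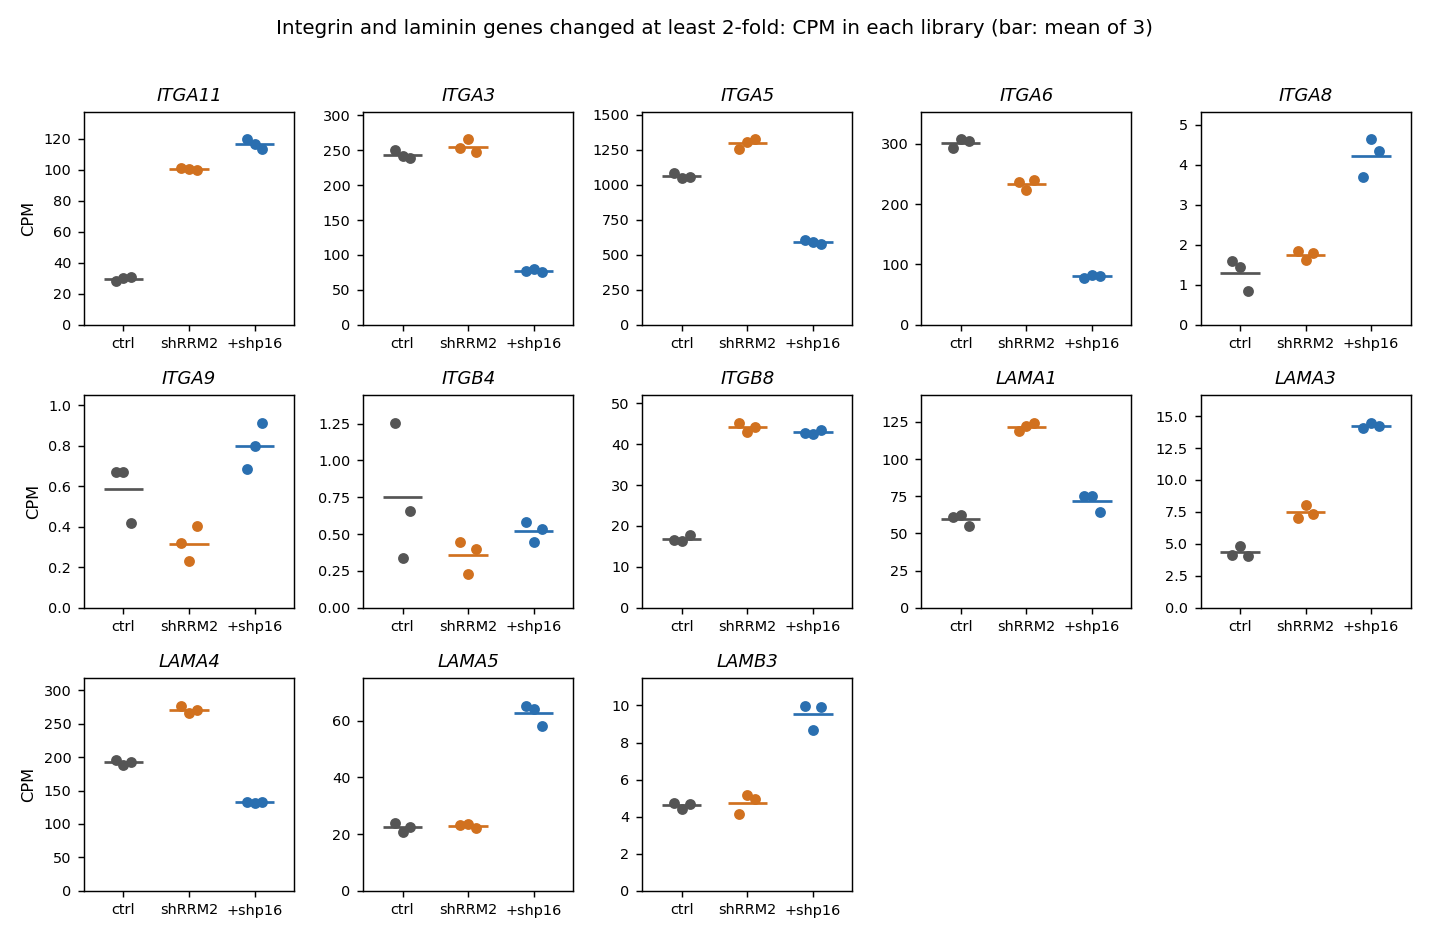
CPM in each library (points) and the group mean of 3 (bars) for the 13 genes that changed at least 2-fold in any comparison (+shp16 is shRRM2/shp16; each axis starts at 0). ITGA3, ITGA5, ITGA6 and LAMA4 are lowest in shRRM2/shp16, LAMA3, LAMA5, LAMB3 and ITGA8 are highest there, and ITGA11 and ITGB8 are low in control only.

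Among the beta subunits, ITGB1 (ENSG00000150093, chr10:32900319-33005792, minus strand) changed little in proportion to its level. It had 2849, 3047 and 3000 CPM in control, 2841, 2775 and 2823 in shRRM2 and 2271, 2347 and 2358 in shRRM2/shp16. Control and shRRM2 nearly touched without overlap, and shRRM2/shp16 was lowest. From shRRM2 to shRRM2/shp16 ITGB1 fell (-0.27 ± 0.025, adjusted p 3.64e-13), and it was lower there than in control (-0.35 ± 0.025, adjusted p 1.25e-16). Its difference between shRRM2 and control (-0.08 ± 0.025, adjusted p 7.17e-03) was lost without control b (adjusted p 0.0799) or shRRM2 b (0.055), with at least 10 counts in every library (0.126) and with the 6 libraries compared (0.0509).

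ITGB3, ITGB5, ITGB6 and ITGB8 pair with ITGAV, and ITGB4 pairs with ITGA6 in hemidesmosomes. ITGB8 (ENSG00000105855, chr7:20330702-20415754, plus strand), whose product with ITGAV releases TGF-beta from its latent form, had 16.5, 16.2 and 17.9 CPM in control. It had 45.3, 42.9 and 44.3 CPM in shRRM2 and 42.8, 42.6 and 43.4 in shRRM2/shp16. Control lay apart, and the 2 hairpin groups overlapped. ITGB8 was 2.63-fold higher in shRRM2 than in control (1.39 ± 0.059, adjusted p 6.68e-24) and 2.55-fold higher in shRRM2/shp16 than in control (1.35 ± 0.059, adjusted p 5.76e-24). Between the hairpin groups it was not called (-0.04 ± 0.051, adjusted p 0.516).

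ITGB5 (ENSG00000082781, chr3:124761948-124901418, minus strand), the vitronectin receptor subunit and the most abundant beta subunit after ITGB1 by RPKM, had 262, 255 and 257 CPM in control. It had 487, 519 and 515 CPM in shRRM2 and 321, 317 and 309 in shRRM2/shp16. All shRRM2 values lay above the others, and control was lowest without overlap. ITGB5 was 1.97-fold higher in shRRM2 than in control (0.98 ± 0.029, adjusted p 1.23e-29) and 1.61-fold lower in shRRM2/shp16 than in shRRM2 (-0.68 ± 0.029, adjusted p 2.34e-24), which left it 1.22-fold above control (0.29 ± 0.029, adjusted p 9.06e-12).

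ITGB4 (ENSG00000132470, chr17:75721328-75757818, plus strand) had 4 to 30 counts a library. It had 1.26, 0.335 and 0.655 CPM in control, 0.444, 0.231 and 0.402 in shRRM2 and 0.581, 0.448 and 0.538 in shRRM2/shp16. Control a was the highest, and the control and shRRM2 values overlapped. The call in shRRM2 against control (-1.14 ± 0.43, adjusted p 0.0214) rested on control a, without which the log2 fold change was -0.45 (adjusted p 0.483), and it was also lost without shRRM2 b (adjusted p 0.107) and with DESeq2 (0.143). In shRRM2/shp16 against control it was not called, except without control b (-0.92, adjusted p 0.0364). ITGB3, which with ITGAV binds vitronectin, had 21.3 to 23.4 CPM in control, 24.7 to 27 in shRRM2 and 23.1 to 25.8 in shRRM2/shp16. It was called higher in shRRM2 (0.20 ± 0.066, adjusted p 8.00e-03) and in shRRM2/shp16 (0.15 ± 0.065, adjusted p 0.0468) than in control; the first was lost without shRRM2 b (0.051) and the second without control a or b or shRRM2/shp16 a or b (0.0738 to 0.158), and both with DESeq2 or no low-count filter. It shares 51.6% of its exon bases with a same-strand gene, AC068234.1, so its count is uncertain. ITGB6, known from epithelium, was not called at 8 to 17 counts a library.

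Of the 5 laminin alpha chains, 4 rose and none fell in shRRM2 against control, while 3 rose and 2 fell between the hairpin groups. Over all genes 29% rose and 31.8% fell in the first comparison, and 31.9% rose and 29.1% fell in the second. LAMA4 (ENSG00000112769, chr6:112108760-112254939, minus strand), the chain of laminin-411 and laminin-421 found around vessels and in mesenchyme, had the highest RPKM of the 5. It had 195, 189 and 192 CPM in control, 277, 265 and 270.2 in shRRM2 and 133, 131 and 134 in shRRM2/shp16. Here too shRRM2 was highest and shRRM2/shp16 lowest, without overlap. LAMA4 was 1.41-fold higher in shRRM2 than in control (0.49 ± 0.030, adjusted p 2.47e-18), 2.04-fold lower in shRRM2/shp16 than in shRRM2 (-1.03 ± 0.031, adjusted p 1.49e-29) and 1.45-fold lower than in control (-0.54 ± 0.032, adjusted p 4.22e-19).

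LAMA5 (ENSG00000130702, chr20:62307955-62367312, minus strand), the chain of laminin-511 and laminin-521 of most adult basement membranes, had 24.0, 20.6 and 22.6 CPM in control. It had 23.1, 23.5 and 22.0 CPM in shRRM2 and 65.2, 64.2 and 58.2 in shRRM2/shp16. Control and shRRM2 overlapped, and the shRRM2/shp16 libraries all stood far above them. LAMA5 was 2.73-fold higher in shRRM2/shp16 than in shRRM2 (1.45 ± 0.059, adjusted p 6.21e-25) and 2.78-fold higher than in control (1.47 ± 0.057, adjusted p 1.01e-25), and it was not called in shRRM2 against control (0.02 ± 0.069, adjusted p 0.784). The authors' deposited table gives LAMA5 a smaller log2 fold change of 0.68 for shRRM2/shp16 against shRRM2, with a q-value of 0.0908.

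The 250 bases before the LAMA5 start are those of the laminin gene that rose most between the hairpin groups (RefSeq, GRCh38.p14, chr20:62367313-62367562, minus strand, 5′ to 3′). Capitals mark GGGCGG, the GC box bound by SP1 type factors, or its reverse complement; 42.6% of the 35116 promoter windows hold it.

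LAMA5: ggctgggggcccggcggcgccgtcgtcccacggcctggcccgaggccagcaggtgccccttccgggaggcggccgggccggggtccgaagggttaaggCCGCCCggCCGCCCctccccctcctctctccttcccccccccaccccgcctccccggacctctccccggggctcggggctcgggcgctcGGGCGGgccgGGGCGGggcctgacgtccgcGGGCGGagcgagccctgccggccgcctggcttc

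This window was 82.8% G or C, with 5 GC boxes and none of the other 3 motifs.

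LAMA1 (ENSG00000101680, chr18:6941744-7117814, minus strand), the chain of laminin-111 of the early embryo, had 61.4, 62.4 and 54.6 CPM in control. It had 119, 122 and 124 CPM in shRRM2 and 75.1, 75.1 and 64.7 in shRRM2/shp16. Values in shRRM2 were far above the rest, and the other groups lay close together without overlap. LAMA1 was 2.04-fold higher in shRRM2 than in control (1.03 ± 0.047, adjusted p 1.00e-22), 1.70-fold lower in shRRM2/shp16 than in shRRM2 (-0.77 ± 0.046, adjusted p 1.07e-18) and 1.20-fold higher in shRRM2/shp16 than in control (0.27 ± 0.050, adjusted p 9.98e-06).

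LAMA3 (ENSG00000053747, chr18:23689443-23956222, plus strand), the chain of the epithelial laminin-332, had 4.15, 4.86 and 4.05 CPM in control. It had 7.05, 8.08 and 7.34 CPM in shRRM2 and 14.1, 14.5 and 14.2 in shRRM2/shp16. These values ran upward in that order without overlap. LAMA3 was 1.73-fold higher in shRRM2 than in control (0.79 ± 0.12, adjusted p 2.73e-07), 1.90-fold higher in shRRM2/shp16 than in shRRM2 (0.93 ± 0.096, adjusted p 2.28e-11) and 3.28-fold higher than in control (1.71 ± 0.10, adjusted p 8.36e-19). LAMA2, the chain of the muscle laminin-211, had 53.3 to 55.7 CPM in control, 67.0 to 73.5 in shRRM2 and 73.2 to 77.3 in shRRM2/shp16. It was higher in shRRM2 than in control (0.35 ± 0.045, adjusted p 9.80e-09), while its rise from shRRM2 to shRRM2/shp16 (0.12 ± 0.043, adjusted p 0.0187) had overlapping groups and was lost without shRRM2 a (adjusted p 0.107), shRRM2 b (0.0622) or shRRM2/shp16 a (0.0677) and with DESeq2 (0.0677).

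Of the beta chains, LAMB1, found in most laminins of mesenchyme, had 471 to 490.1 CPM in control, 561 to 576 in shRRM2 and 674 to 697 in shRRM2/shp16. No library of one group reached another group, and the log2 fold changes were 0.24 ± 0.026 for shRRM2 against control (adjusted p 1.11e-10) and 0.27 ± 0.026 between the hairpin groups (adjusted p 2.67e-12). LAMB2, which takes its place in laminins of muscle and kidney, had 269 to 286 CPM, 335 to 342 and 273 to 288 in the same order. It was higher in shRRM2 than in control (0.29 ± 0.030, adjusted p 2.00e-11), lower in shRRM2/shp16 than in shRRM2 (-0.26 ± 0.030, adjusted p 3.96e-10) and not called in shRRM2/shp16 against control (0.03 ± 0.030, adjusted p 0.35).

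LAMB3 (ENSG00000196878, chr1:209614870-209652466, minus strand), the beta chain of laminin-332, had 4.74, 4.42 and 4.71 CPM in control. It had 4.13, 5.19 and 4.94 CPM in shRRM2 and 9.98, 8.66 and 9.89 in shRRM2/shp16. Control and shRRM2 overlapped, with shRRM2/shp16 above both. LAMB3 was 1.99-fold higher in shRRM2/shp16 than in shRRM2 (0.99 ± 0.12, adjusted p 8.40e-10) and 2.05-fold higher than in control (1.04 ± 0.11, adjusted p 1.19e-10). LAMB4 had 4 to 16 counts a library, and its call in shRRM2/shp16 against control (0.97 ± 0.42, adjusted p 0.0438) was lost under 7 alternatives, among them leaving out control a or c or shRRM2/shp16 b or c (adjusted p 0.0749 to 0.226).

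LAMC1, the gamma chain of most laminins, had 952 to 1000 CPM in control, 1030 to 1088 in shRRM2 and 794 to 802 in shRRM2/shp16, without overlap. It was slightly higher in shRRM2 than in control (0.11 ± 0.026, adjusted p 1.93e-04) and lower in shRRM2/shp16 than in shRRM2 (-0.40 ± 0.026, adjusted p 1.32e-17).

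Since the subunits work as dimers and trimers, the make-up of each class was described as the share of each gene in the summed RPKM of its class, with no test. The summed RPKM of the alpha subunits was 331 ± 2.55 in control, 399 ± 5.50 in shRRM2 and 279 ± 2.37 in shRRM2/shp16 (mean ± SD, n = 3 each). Within it the laminin-binding subunits held 21.9% ± 0.11 in control, 15.8% ± 0.24 in shRRM2 and 7.66% ± 0.097 in shRRM2/shp16. The collagen-binding subunits held 24.2% ± 0.65, 29.8% ± 0.31 and 46.5% ± 0.37 in the same order, and their ranges over libraries did not overlap between groups. The RGD-binding subunits held 50.9% ± 0.79, 52.2% ± 0.56 and 43.6% ± 0.57, with shRRM2/shp16 below both other groups. The gene with the largest share was ITGA5 in control (42.3% ± 0.99) and shRRM2 (42.8% ± 0.71) and ITGA2 in shRRM2/shp16 (36.4% ± 0.38, from 20.2% ± 0.66 in control).

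**Figure D4:**
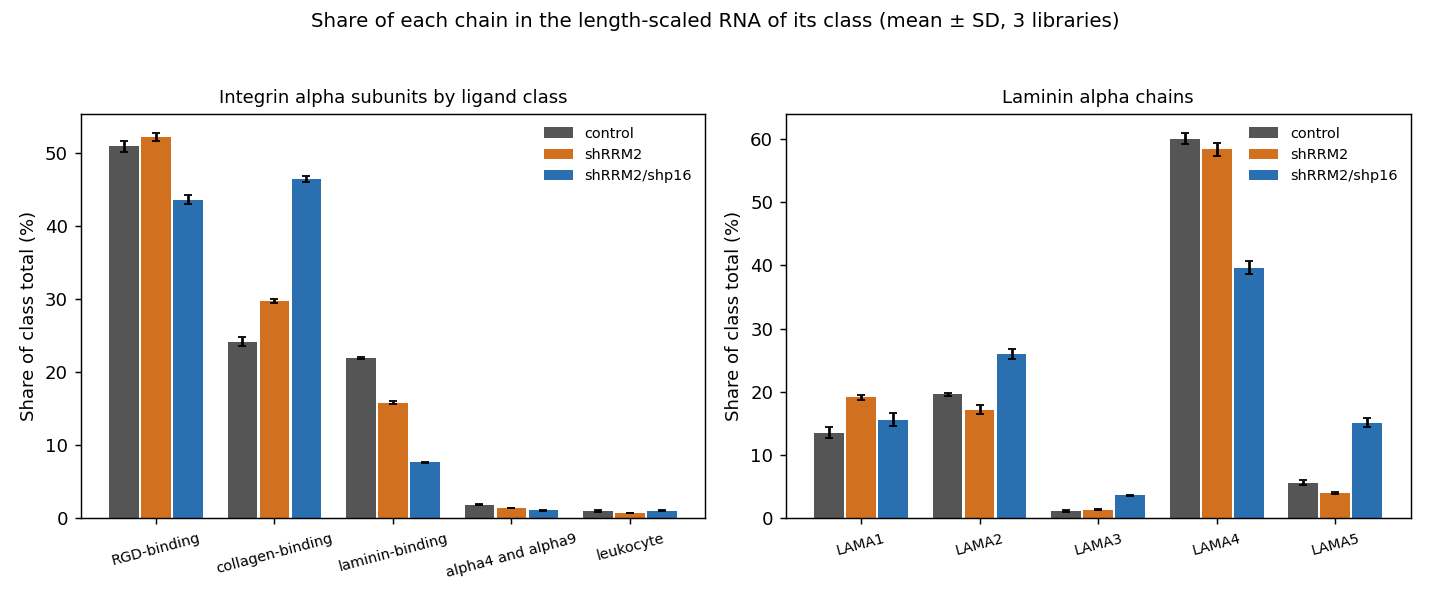
Share (%) of each ligand class in the summed RPKM of the integrin alpha subunits (left) and of each chain in that of the laminin alpha chains (right); bars are means and error bars SDs of 3 libraries. In shRRM2/shp16 the collagen-binding share is 46.5% and the laminin-binding share 7.66%, against 24.2% and 21.9% in control.

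ITGB1 made up 91.4% ± 0.39 of the summed RPKM of the beta subunits in control, 84.2% ± 0.54 in shRRM2 and 87.0% ± 0.44 in shRRM2/shp16, and ITGB5 made up 7.41% ± 0.33, 14.1% ± 0.53 and 11.02% ± 0.37. Among the laminin alpha chains LAMA4 held 60.0% ± 0.91, 58.3% ± 1.07 and 39.6% ± 0.99, while LAMA5 held 5.67% ± 0.37, 3.99% ± 0.18 and 15.1% ± 0.66. LAMA2 held 19.6% ± 0.25, 17.2% ± 0.72 and 25.9% ± 0.79. In these classes too the ranges of shRRM2/shp16 stood apart from those of the other groups. Among the beta chains LAMB1 held 58.9% ± 0.37, 58.1% ± 0.42 and 66.1% ± 0.30. Between the hairpin groups ITGA2 went from 94.3 to 101 RPKM while its share went from 23.6% to 36.4%, as the class sum fell.

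The genes that work with integrins were counted from lists. Of 27 tested genes of integrin activation and linkage to actin, 10 rose and 7 fell in shRRM2 against control (median log2 fold change 0.05). Over all genes 29% rose and 31.8% fell there (median 0.0023). Between the hairpin groups 1 of the 27 rose and 22 fell (median -0.33), where 31.9% of all genes rose and 29.1% fell (median 0.011). Against control 3 of the 27 rose and 22 fell in shRRM2/shp16 (median -0.42). There 30% of all genes rose and 32.4% fell (median 0.015). The lowest called value in shRRM2/shp16 against shRRM2 was that of LIMS2, an adaptor of the integrin-linked kinase complex (-1.71 ± 0.055, adjusted p 1.12e-28), and against control that of PXN, the focal adhesion scaffold paxillin (-1.31 ± 0.031, adjusted p 7.99e-34). The single gene called higher in shRRM2/shp16 than in shRRM2 was KANK2 (0.10 ± 0.033, adjusted p 0.0109), and this count was 0 to 2 with a library left out. All 7 tested smooth muscle markers were also lower in shRRM2/shp16 than in shRRM2 (median -1.18), and their part in this result was not tested.

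Of 17 tested other laminin receptors and membrane partners of integrins, 8 rose and 7 fell in shRRM2 against control (median 0.03, beside 0.0023 over all genes), where 29% of all genes rose and 31.8% fell. Between the hairpin groups 5 rose and 12 fell (median -0.40, beside 0.011), where 31.9% of all genes rose and 29.1% fell. The lowest there was CD9, a tetraspanin that associates with integrins (-1.35 ± 0.044, adjusted p 2.57e-28), and the highest SLC3A2, the CD98 heavy chain that binds beta subunits (0.52 ± 0.041, adjusted p 5.90e-15). Of 17 tested basement membrane partners of laminins, 10 rose and 4 fell in shRRM2 against control (median 0.38), and 9 rose and 6 fell between the hairpin groups (median 0.16), beside the same shares and medians over all genes. HSPG2, which encodes perlecan, was the lowest in the second of these (-0.94 ± 0.030, adjusted p 6.21e-29), and SMOC1, a calcium-binding matrix protein, the highest (1.80 ± 0.051, adjusted p 1.24e-30).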

How the data were processed

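RNA was sequenced in 9 IMR90 libraries, 3 each of control, shRRM2 and shRRM2/shp16. For each library the authors deposited raw counts of reads by Ensembl gene, in the layout of HTSeq per the file headers and tally lines. TopHat2 2.0.9, Cufflinks 2.0.2, Cuffdiff and the build GRCh38 are named in the submitters' processing notes; the strand setting is not given in the sources used here. The authors also deposited log2 RPKM values per library, and, per the file headers, a log2 fold change with p-value and q-value for the contrast of the hairpin groups. By calculation the log2 RPKM values are log2(x + 1) of reads per base of gene length, scaled to the total of gene reads. The column of shRRM2 c did not match its count file, so levels were taken from the counts, and the columns gave only each gene's length.

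The test was edgeR 4.0.16 on the counts in R 4.3.3 (filterByExpr, TMM scaling, 1 quasi-likelihood fit to the 9 libraries with 6 residual degrees of freedom, two-sided). That kept 16561 genes with 99.8% of the counts, over which the Benjamini-Hochberg adjustment ran. Tally lines that name no gene were left out. CPM is the count scaled by the TMM-adjusted library size, and RPKM is that CPM per kilobase. Positions came from GENCODE release 29. Each integrin or laminin gene with an adjusted p under 0.05 and at least 2-fold change in any comparison was given in every library, as were ITGA2, ITGB1 and ITGB5, each the most abundant of its role group by mean RPKM, and the others by range; 1 tested gene is in the counts but is not reported singly here. The symbol rule that sets the genes uses no measured value, but it and the lists were chosen with earlier results of these data known. The fit was also tested on simulated data, in which far fewer genes changed than were called here. That test does not give the error rate for these data. Alternatives were RLE size factors, DESeq2 1.42.0, other low-count filters, the 6 libraries compared, a replicate block and leaving out each library. Counts carry no molecular identifiers, so their error is not counting error alone.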

Additional observations from a re-analysis of the deposited data

How the results depend on the processing

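Of 1121 log2 fold changes of single genes recomputed under an alternative, 1064 kept their direction and side of the threshold, 48 lost the call, 9 gained one and 0 changed sign. The number of genes lower in shRRM2 than in control, 7 in the fit reported, was 3 with at least 10 counts in every library and 4 with the 6 libraries compared or DESeq2, and 3 to 8 with 1 library left out. The number at least 2-fold lower there, 1 (ITGB4), was 0 with each of those 3 settings and 0 to 2 with 1 library left out. ITGB4 had 4 counts in its lowest library, so the filter of at least 10 counts left it out. Under that filter ITGA4, ITGA7 and ITGB1 were no longer called (edgeR adjusted p 0.0921, 0.0535 and 0.126). The cause of the changes under the other settings was not tested. The lost calls were those of ITGA4, ITGA7, ITGAE, ITGB1, ITGB3, ITGB4, ITGA9, LAMA2 and LAMB4, and the gained ones those of ITGA3, ITGA9, ITGAX and ITGB4. The replicate block left 15 genes higher and 7 lower for shRRM2 against control, 11 and 12 between the hairpin groups, and 14 and 10 in shRRM2/shp16 against control. It ended 1 call, that of LAMB4 in the last (log2 fold change 0.93, adjusted p 0.0565). Deviations of libraries with the same letter correlated at -0.02 to 0.049 over 9 pairs and those with different letters at -0.048 to 0.036, so the letters were not taken to pair the libraries. With merged exon lengths of GENCODE release 29, 4 of 129 class shares moved by more than the SD (LAMA2 in control to 19.2%, LAMA3 in shRRM2/shp16 to 3.40%, and ITGB6 in 2 groups). The number of integrin ligands lower in shRRM2 than in control, 5, was 3 under 6 alternatives. Depth limits the genes with at most 30 counts in a library, ITGA2B, ITGA9, ITGAX, ITGB4, ITGB6 and LAMB4, whose SEs were 0.34 to 0.48.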

Other observations

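The integrin ligands other than laminins, with 20 of 26 listed genes tested, had 11 higher and 5 lower in shRRM2 than in control (median log2 fold change 0.13), where over all genes 29% were higher and 31.8% lower (median 0.0023). Between the hairpin groups 5 were higher and 12 lower in shRRM2/shp16 (median -0.24), where over all genes 31.9% were higher and 29.1% lower (median 0.011). ICAM1, a ligand of leukocyte integrins, had 17.6 ± 1.07 CPM in control, 103 ± 4.57 in shRRM2 and 108 ± 3.11 in shRRM2/shp16 (mean ± SD, n = 3 each), with a log2 fold change of 2.55 ± 0.052 in shRRM2 against control (edgeR adjusted p 1.62e-35). VCAM1, a ligand of the ITGA4 and ITGA9 receptors, had 2.29 ± 0.34, 2.28 ± 0.20 and 13.6 ± 1.56 CPM and rose by 2.57 ± 0.13 in shRRM2/shp16 against shRRM2 (adjusted p 8.21e-21). CYR61, a matrix protein bound by several integrins, had 492 ± 3.10, 688 ± 10.2 and 239 ± 0.38 CPM and was the lowest of the list in that comparison (-1.53 ± 0.027, adjusted p 1.71e-38).

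In the authors' deposited table, 10 of the integrin and laminin genes had a q-value under 0.05 for shRRM2/shp16 against shRRM2: ITGA3, ITGA4, ITGA5, ITGA6, ITGA8, ITGB5, LAMA1, LAMA4, LAMB3 and LAMC1. All 10 were among the 23 called from the counts, with the same sign, and the 23 all had the same sign in that table. The values rest on the same reads, so this is not a second measurement. The share of all genes with such a q-value was not counted, so the 10 stand without a background share.

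RefSeq promoter entries were at hand for 26 of the 38 symbols, with 33 windows of 250 bases, some of them overlapping windows of 1 gene. GGGCGG was found in 17 windows, GGAATG in 4, GGGNNTTCC in 3 and TGANTCA in 2, on either strand. Over all 35116 windows the shares with a match were 42.6%, 11.9%, 5.78% and 6.57% in the same order. The 2 windows with TGANTCA were those of LAMA3 and of 1 start of LAMB3. That of LAMA3 ended 183577 bases inside the gene, at an internal start, and held 180 annotated exon bases. The other LAMB3 windows had no such match.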
